A study of Mus musculus with 17 samples.

Results

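The genes described here are those that build the T cell receptor, measured in whole mouse lung by RNA sequencing. They were defined by annotation, as every row of the gene count table whose biotype is a T cell receptor constant (C), variable (V), joining (J) or diversity (D) gene, which gave 31 of the 31245 genes. This gene family was chosen with earlier results of these data known. Of these, 24 were V genes and 7 were C genes, with 0 J and 0 D genes. By locus, 8 lay in alpha, 13 in beta, 8 in gamma and 2 in delta.

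T cells recognise antigen through a receptor of paired chains, alpha with beta or gamma with delta. Each T cell assembles its own chains by joining V, D and J segments of the DNA, and the joined segment is spliced to a C gene, so that the C gene is read in all T cells that use that locus while a given V gene is read in few. In the lung, alpha-beta T cells are found as circulating and resident cells, and gamma-delta T cells are a smaller population with roles at the epithelium. The receptor chains reach the cell surface together with the CD3 proteins.

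The lungs came from 17 mice in 6 groups, given by genotype and drinking water, with 1 library per mouse. Wildtype (WT) mice were Sv/129 animals bought from a supplier, whereas the PPARa KO (KO) mice, null for mouse PPARα, and the hPPARa KI (KI) mice, which carry human PPARα in place of the mouse receptor, descend from breeding pairs heterozygous for human PPARα on the null background, so that line of origin and genotype cannot be told apart. Mice of all groups ate a diet modelled on that of American adults, started at 6 weeks of age, and drank sucrose water without (vehicle) or with PFOA, perfluorooctanoic acid, at the higher of the study's concentrations (labelled Hi-PFOA) for 14 weeks. There were 2 WT vehicle libraries and 3 of every other group. Only females were sequenced in KO, and both sexes in WT and KI. RNA came from snap-frozen whole lung, so that fewer T cells and less RNA per T cell cannot be told apart.

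Library totals ranged from 4116118 to 9237356 counts, where 3 counts equal 0.325 to 0.729 CPM, the unit of library-size-scaled counts used below. Protein-coding genes took 65.3% of the counts in WT vehicle 122 and 61.3% in KO vehicle 137, the shallowest library, against 74.4% to 80.4% in the other 15. The 8 genes of the lung list, such as Sftpc, summed to between 9861 and 26055 CPM in each library, but the sum hides differences between its genes. Sftpc was at 932 CPM in WT vehicle 122 and 677 in KO vehicle 137, against 2040 to 3501 in the other 15. Cldn18 was also lowest in these 2 libraries, at 129 and 87.3 CPM. Scgb1a1 went the other way in WT vehicle 122, where it was highest (21353 CPM). Ppara, the targeted gene, was at 6.13 and 7.21 CPM in WT vehicle and 4.39 to 6.94 in WT PFOA libraries, and at 8.82 to 11.7 CPM in the libraries labelled KO and 9.08 to 20.4 CPM in those labelled KI. The label KO was thus not matched by a lower Ppara count, and both genotype names are used here as labels. Some genes of immature T cells stood out in 2 libraries. Rag1, part of the enzyme that joins V, D and J segments, was at 4.43 CPM in WT PFOA 50 and 3.92 in KO vehicle 137, against 0 to 1.28 in the others, and Ptcra, the partner of the beta chain in immature T cells, at 1.14 and 2.99 CPM against 0 to 0.571. Rag2, the partner of Rag1, was high in KO vehicle 137 (2.30 CPM) but not in WT PFOA 50 (0.127), and so was Dntt, which adds bases at the joins (1.38 and 0.253 CPM).

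T cell receptor transcripts were scarce in these lungs. The 31 genes held 1993 counts in all libraries together, and 59 (WT vehicle 122) to 197 (KO PFOA 155) per library. The 7 C genes took 78.0% of these counts and the 24 V genes 22%. By locus, beta genes took 42.0%, alpha genes 23.5%, gamma genes 20.2% and delta genes 14.2%. The table lists no gene with a total under 10 and only 24 of the 144 V genes of the GENCODE M21 annotation. Reads on genes absent from it are not in these shares. Only genes with at least 20 counts over all libraries were tested, which kept 7 of 7 C genes but 8 of 24 V genes, and 0 of the 7 alpha V genes. Genes that reached 20 counts through a group in which they are high are favoured by such a limit, and the 15 that passed therefore do not stand for all 31.

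Because reads of about 80 bases were assigned to genes, the likeness of the C genes sets which of them could be measured apart. Trac (chr14:54220521-54224206, plus strand), the 1 C gene of the alpha chain, shared 0% of its 80-base stretches with any other annotated transcript, and its counts were whole numbers in 17 of 17 libraries. The start of its first exon (chr14:54220521-54220670, mm10) is shown because the main values below rest on this gene:
Trac: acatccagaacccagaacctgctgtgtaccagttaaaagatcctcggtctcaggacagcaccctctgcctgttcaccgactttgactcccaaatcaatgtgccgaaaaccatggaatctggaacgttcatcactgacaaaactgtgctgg

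The beta locus has 2 C genes, Trbc1 (chr6:41538218-41539881) and Trbc2 (chr6:41546730-41548352), on the plus strand of chromosome 6. Their first exons, of 375 bases each, differed at 1 base, and 33.4% of the 80-base stretches of Trbc1 and 36.4% of those of Trbc2 were shared. Both had estimated counts that were not whole in 17 of 17 libraries. Their split is therefore uncertain.

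The gamma C genes were less alike. Over first exons of 330 bases, Trgc1 (chr13:19214103-19217024, plus strand) differed from Trgc2 (chr13:19304649-19307551, minus strand) at 9 bases and from Trgc4 (chr13:19344558-19352756, plus strand) at 59. Of the 80-base stretches, 15.4% of Trgc1, 6.8% of Trgc2 and 0% of Trgc4 occurred in another transcript.

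Trdc (chr14:54142851-54148868, plus strand), the 1 delta C gene, overlapped Gm43434 and the V gene Trdv5 on the opposite strand, and how the counting used the strand is not given in the sources used here. Of its 80-base stretches, 4.1% occurred in another transcript. Per kilobase of exon, the mean over all libraries was highest for Trbc2 (3.63 CPM per kb), Trbc1 (3.36) and Trac (3.16), whose order changed between groups (Trbc2 was first of the 3 in WT vehicle and Trbc1 in KO PFOA). Trgc1 followed at 1.21, Trgc4 at 0.71, Trgc2 at 0.632 and Trdc, whose annotated exons span 3865 bases, at 0.53 CPM per kb. Of the summed Trac and Trdc level per exon base on vehicle, Trac made up 81.1% ± 0.866 in WT (SD, n = 2). It made up 79.9% ± 3.32 in KO and 81.7% ± 3.04 in KI (SD, n = 3 each). On PFOA this share was 90.8% ± 3.29 in WT, 89.0% ± 6.14 in KO and 83.6% ± 5.31 in KI (SD, n = 3 each). The libraries overlapped in KO (up to 83.4% on vehicle, from 82.4% on PFOA) and in KI (up to 84.3% and from 80.5%), but not in WT. The size of this share depends on the annotated exon lengths, 935 bases for Trac and 3865 for Trdc. Before division by length, the WT vehicle means were 1.77 CPM for Trac and 1.70 for Trdc.

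Trac was higher on PFOA in each genotype, with no overlap between exposed and vehicle libraries, although the difference did not pass the threshold over all genes. In WT, the vehicle libraries had 1.73 and 1.80 CPM and the PFOA libraries 3.07, 4.11 and 5.20. In KO, they had 0.921, 1.88 and 2.39 CPM on vehicle and 4.05, 5.08 and 5.71 on PFOA. In KI, the values were 1.15, 1.83 and 2.23 CPM on vehicle and 2.40, 2.66 and 3.98 on PFOA. The 3 vehicle means lay close together, with 1.77 ± 0.0495 for WT (SD, n = 2), 1.73 ± 0.747 for KO and 1.73 ± 0.548 for KI (SD, n = 3 each), while the PFOA means were 4.13 ± 1.06, 4.95 ± 0.842 and 3.01 ± 0.851 CPM (SD, n = 3 each). These levels rest on 24, 36 and 36 counts on vehicle and 94, 115 and 71 on PFOA.

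**Figure D1:**
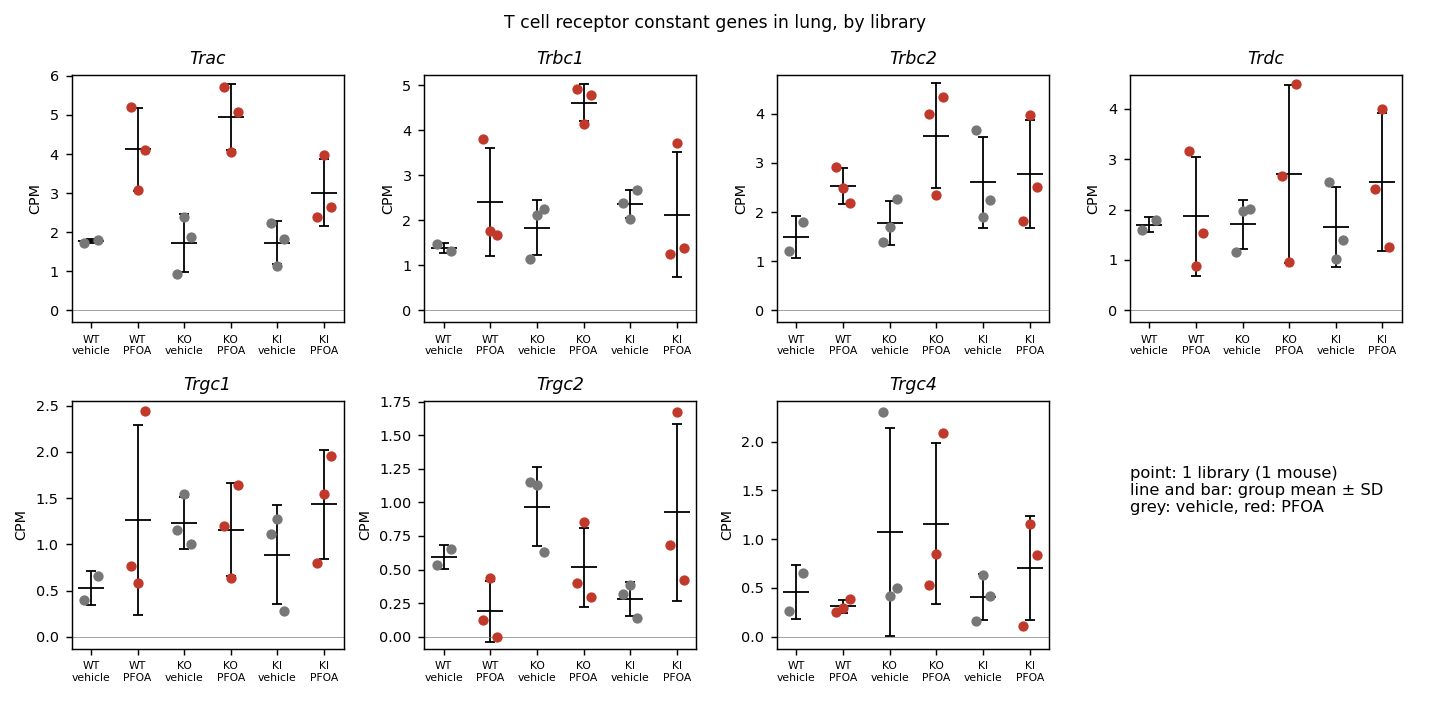
Level of each T cell receptor C gene in CPM (y axis) by group (x axis). Points are libraries, and lines with bars are group means ± SD. The Trac points of the PFOA groups lie above those of the vehicle group of the same genotype in all 3 genotypes, whereas those of Trdc, Trgc1 and Trgc4 overlap within each genotype.

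In edgeR's quasi-likelihood test, the log2 fold change of Trac reached 1.22 (SE 0.43) for WT, 1.45 (SE 0.37) for KO and 0.80 (SE 0.38) for KI. The Benjamini-Hochberg adjusted p over 26946 genes was 0.544, 0.434 and 1, against a call at an adjusted p under 0.2 with a fold over 2. Over the 3 genotypes, in a model of genotype and exposure, the log2 fold change was 1.16 (SE 0.23), with an unadjusted edgeR p of 4.65e-05, which ranked 2 of 26946 genes, and an adjusted p of 0.288. DESeq2 on the same genes, with its own filters switched off, gave 1.15 with an adjusted p of 0.0112. With its default filters it gave Trac no adjusted p. The edgeR test passed the threshold when KI PFOA 57 (adjusted p 0.113), KI PFOA 139 (0.123) or KI vehicle 102 (0.158) was left out. Over all alternatives, the log2 fold change of Trac over the 3 genotypes stayed between 1.04 and 1.25 and the adjusted p, where given, between 0.0112 and 0.645. Without WT PFOA 50, where Rag1 was high, it was 1.11, and without WT vehicle 122 and KO vehicle 137 together it was 1.05 (adjusted p 0.454).

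Values of Trac within sex kept the direction but were small in number. In females, PFOA and vehicle means were 5.20 and 1.73 CPM in WT (1 library each) and 3.32 and 1.49 in KI (2 each). In males they were 3.59 (2 libraries) and 1.80 (1) in WT, and 2.40 and 2.23 (1 each) in KI. The library names also carry a code of 4 values whose meaning the labels do not give. Within a shared code, WT had 4.11 CPM on PFOA (1 library) and 1.77 on vehicle (2), and KI had 3.98 and 1.15 within 1 code and 2.66 and 1.83 within another (1 library each). All 3 KO PFOA libraries carried the same code and 0 KO vehicle libraries did, so that code and exposure cannot be told apart in KO. With the code as a covariate over the 3 genotypes, the log2 fold change was 1.11 with an edgeR adjusted p of 0.645. An exact permutation test of Trac within a genotype gave p = 0.2 in WT and 0.1 in KO and KI (two-sided), which are the smallest values these group sizes allow.

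The beta C genes, which encode the constant part of the partner chain, were higher on PFOA in WT and KO and overlapped in KI. Trbc1 had 1.47 and 1.31 CPM in WT vehicle and 3.80, 1.75 and 1.67 in WT PFOA. The KO libraries had 1.15, 2.11 and 2.26 CPM on vehicle and 4.92, 4.15 and 4.78 on PFOA. In KI the vehicle libraries, at 2.39, 2.04 and 2.67 CPM, lay between the PFOA libraries, at 1.26, 3.73 and 1.40. For Trbc1, KI PFOA was thus the one exposed group with libraries below all those of its vehicle group.

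Trbc2 ran close to Trbc1. Its group means were 1.5 ± 0.426 (SD, n = 2) and 2.53 ± 0.367 CPM (SD, n = 3) in WT, 1.78 ± 0.446 and 3.55 ± 1.06 in KO, and 2.61 ± 0.929 and 2.78 ± 1.10 in KI (SD, n = 3 each), for vehicle and PFOA. The WT and KO groups did not overlap and the KI groups did. The log2 fold changes in KO were 1.28 (SE 0.44) for Trbc1 and 0.96 (SE 0.40) for Trbc2, with edgeR adjusted p of 0.477 and 0.489, and over the 3 genotypes 0.63 (SE 0.29) and 0.58 (SE 0.25), with 0.590 and 0.553. Trbc1 took 41.6% to 57.2% of the counts of the pair in the group means, a share that the near-identical first exons leave uncertain.

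For Trdc, the delta C gene, the PFOA and vehicle libraries overlapped in each genotype. It had 1.60 and 1.80 CPM in WT vehicle and 3.17, 0.877 and 1.54 in WT PFOA. In KO it had 1.15, 1.97 and 2.01 CPM on vehicle and 2.66, 0.958 and 4.49 on PFOA, and in KI 2.55, 1.02 and 1.41 on vehicle and 2.40, 3.98 and 1.26 on PFOA. The PFOA groups were wider than the vehicle groups. Its log2 fold change over the 3 genotypes was 0.49 (SE 0.34, edgeR adjusted p 0.728).

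The gamma C genes had no common direction. Trgc1, which lies with Trgv4, Trgv5 and Trgv6, had group means of 0.527 to 1.43 CPM, with 2.44 CPM in WT PFOA 65 against 0.76 and 0.585 in the other WT PFOA libraries. Its log2 fold change over the 3 genotypes was 0.52 (SE 0.40, edgeR adjusted p 0.753). Trgc4, which lies next to Trgv1, was highest in KO vehicle 137 (2.30 CPM) and KO PFOA 155 (2.09), and its groups overlapped in each genotype.

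Trgc2, the C gene on the minus strand, as is Trgv2, was lower on PFOA in WT, higher in KI and overlapping in KO, on few counts. In WT it had 0.533 and 0.655 CPM on vehicle and 0.127, 0.439 and 0 on PFOA, and in KI it had 0.318, 0.382 and 0.141 on vehicle and 0.685, 1.67 and 0.419 on PFOA. Neither pair of groups overlapped, but the WT values rest on 8 and 4 counts and the KI values on 6 and 22. In KO it had 1.15, 1.13 and 0.628 CPM on vehicle and 0.399, 0.852 and 0.299 on PFOA, with a log2 fold change of -0.84 (SE 0.84, edgeR adjusted p 0.728). The difference of the KI and WT effects was 3.27 on the log2 scale (SE 1.37, unadjusted edgeR p 0.0275), with an adjusted p of 0.999.

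**Figure D2:**
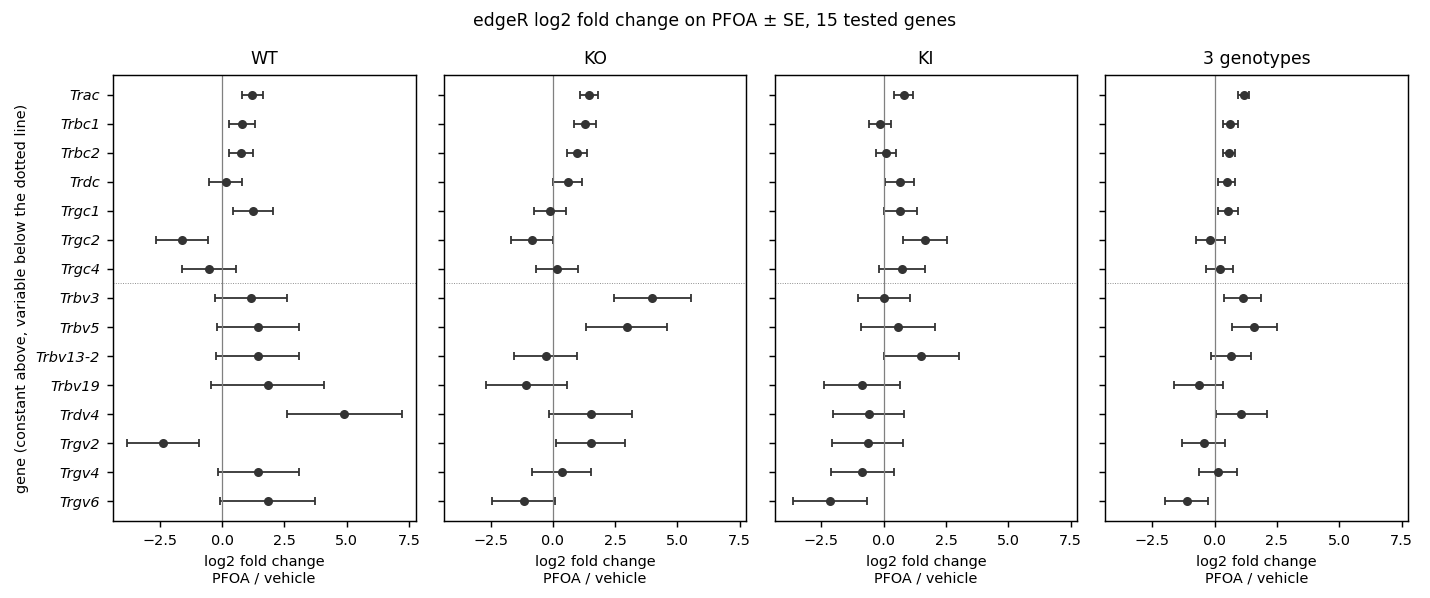
Log2 fold change on PFOA against vehicle (x axis) with its SE for the 15 tested genes (y axis, C genes above the dotted line and V genes below it) in WT, KO, KI and over the 3 genotypes. Trac is above 0 in each panel, and the V genes have wide bars because they rest on few counts.

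V genes were seen only as scattered reads. A V gene had at most 9 counts in any library, and the number of V genes with a count ranged from 2 of 24 in WT vehicle 122 to 18 of 24 in KO PFOA 155. V counts per 100 C counts ranged from 11.3 (WT vehicle 122) to 60.9 (KI vehicle 135). Exposed and vehicle libraries overlapped in this measure in WT and KO, whereas in KI the vehicle libraries, at 31.8 to 60.9, lay above the PFOA libraries, at 16.9 to 25.3. In the alpha locus, the 3 highest V genes by mean level were Trav8d-1 (0.157 CPM), Trav9-2 (0.141) and Trav9d-4 (0.116). Of 11 counts of Trav9-2, 9 were in KO vehicle 137 and 2 in WT vehicle 122, the libraries with low protein-coding shares. The reads of Trav9d-4 are not its own alone, since 76.7% of its 80-base stretches occur in Trav9-2, Trav9-4 or Trav9n-4.

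The highest beta V genes were Trbv5 (0.249 CPM), Trbv3 (0.221) and Trbv13-2 (0.205). Trbv3 was listed at 0 in the 3 KO vehicle libraries and had 3, 2 and 1 counts in KO PFOA 52, 154 and 155, so that no fold is given. In KI its counts were 3, 2 and 3 on vehicle and 1, 6 and 2 on PFOA. Trbv5 had 1 count in KO vehicle and 11 in KO PFOA, and 75.1% of its stretches are shared with 5830405F06Rik, which overlaps it on the same strand. Trbv13-2 had 3 or fewer counts in each library but KI PFOA 80, which had 4.

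In the delta locus, Trdv4 was at 0 in both WT vehicle libraries and had 5, 6 and 0 counts in WT PFOA libraries (edgeR adjusted p 0.674, no fold given). Trdv4, with 29 counts in all libraries, passed the filter only through its WT PFOA counts, so that its p is no support for a difference. With 4, 1 and 2 counts in KI vehicle and 0, 2 and 3 in KI PFOA, it did not go the same way there. Of the gamma V genes, Trgv4 (0.27 CPM) had 8 counts in KO PFOA 154 and 6 in KO vehicle 145. Trgv2 (0.188 CPM) had 3 and 4 counts in WT vehicle and 1, 0 and 1 in WT PFOA, groups that did not overlap. It passed the filter only through its WT vehicle counts. Trgv6 (0.186 CPM), used by an IL-17-producing gamma-delta population, had 1 count in the 5 WT libraries together and 14 in the 6 KO libraries. On the opposite strand, Gm31887 overlaps Trgv4, Trgv5 and Trgv6, and Gm30275 overlaps Trdv4. As for Trdc, the use of strand in counting is not given.

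**Figure D3:**
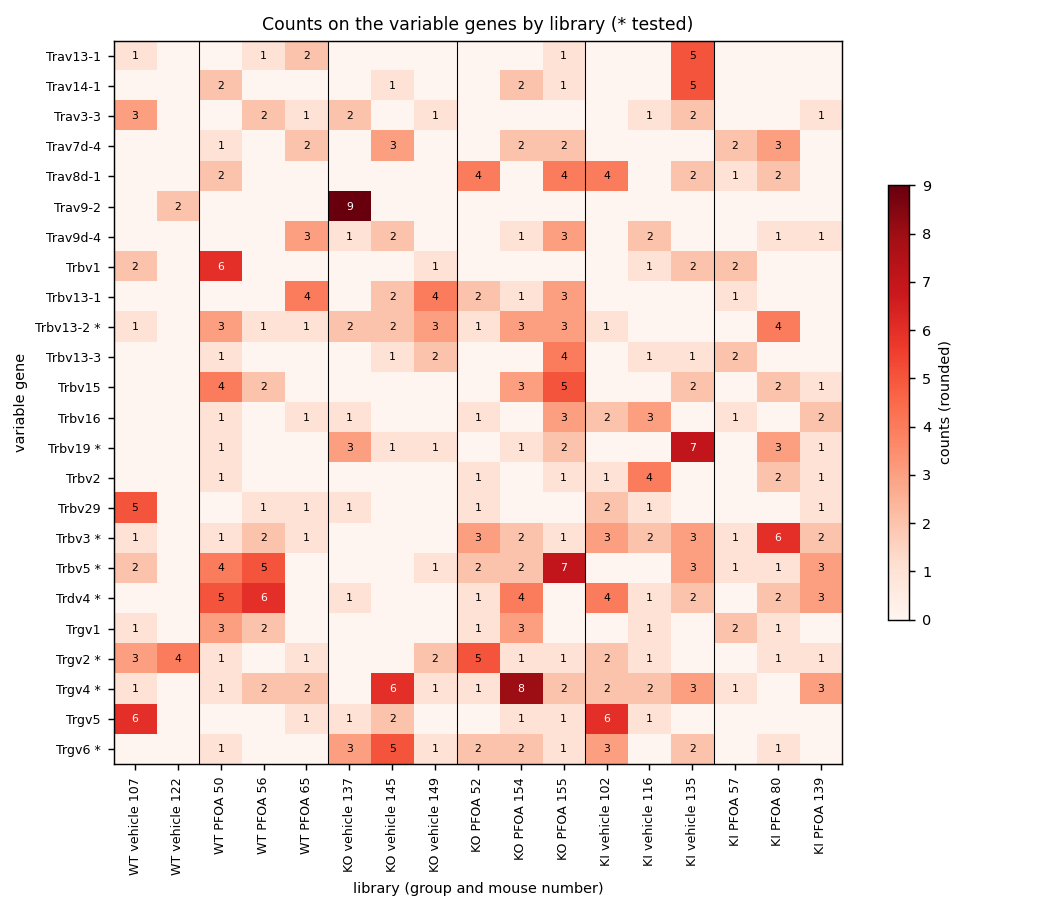
Rounded counts of the 24 V genes (y axis, * marks those tested) in each library (x axis), with vertical lines between groups. Blank cells are 0. WT vehicle 122 has counts in 2 V genes and KO PFOA 155 in 18.

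Summed over the tested genes of a locus, the beta level in WT was 3.15 ± 0.06 CPM on vehicle (SD, n = 2) and 5.79 ± 1.90 on PFOA (SD, n = 3). It was 4.35 ± 0.74 and 9.37 ± 1.88 in KO, and 5.88 ± 1.45 and 5.86 ± 3.24 in KI (SD, n = 3 each). The KI means were thus alike, with a wider spread on PFOA. The gamma sum was 2.18 ± 0.629 and 2.11 ± 0.953 CPM in WT, 4.19 ± 1.39 and 3.78 ± 0.759 in KO, and 2.31 ± 0.66 and 3.37 ± 1.5 in KI. The delta sum was 1.70 ± 0.144 and 2.37 ± 1.25 CPM in WT, 1.79 ± 0.351 and 2.89 ± 1.55 in KO, and 2.0 ± 1.06 and 2.77 ± 1.32 in KI. The alpha sum is that of Trac alone, since its V genes were not tested.

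With edgeR, 0 of the 15 tested genes were called on PFOA in WT, in KO, in KI or over the 3 genotypes, and the share of all genes called was 0% in each of these comparisons. DESeq2 on the same genes called 1, Trac, over the 3 genotypes (26 of all 26946 genes). Within a genotype it called 0 of the 15 in WT (24 of all genes), KO (68) and KI (1). At an unadjusted edgeR p under 0.05, 2 of 15 were higher in WT (3.12% of all genes), 4 of 15 in KO (3.74%), 1 of 15 in KI (1.47%) and 3 of 15 over the 3 genotypes (3.80%). None (0 of 15) were lower in these comparisons, against 4.23%, 6.06%, 1.12% and 4.47% of all genes. Trdv4 and Trgv2 passed the filter only through WT PFOA and WT vehicle, so that their part in the WT numbers is no support for a difference. Trbc1 and Trbc2, whose split is uncertain, count as 2 genes here. With the pair merged, 2 of 14 in WT, 3 in KO, 1 in KI and 2 over the 3 genotypes had an unadjusted edgeR p under 0.05 in either direction. Of all 26945 genes, 1981, 2640, 699 and 2227 did. The median log2 fold change over the 15 in WT was 1.22, with 0.60 for KO, 0.10 for KI and 0.52 over the 3 genotypes, beside medians of 0.04, -0.03, 0.01 and -0.01 over all genes. The WT median depended on single libraries and on the model, at 0.68 without WT vehicle 122, 0.66 without WT PFOA 50 (9 of 15 positive) and -0.065 with the library code as a covariate (7 of 15 positive, against 12 in the model without it). The KO median fell to 0.35 without KO PFOA 154 and was 1.10 with the code as a covariate. The KI median was -0.32 without KI PFOA 80, -0.099 without KI vehicle 116 and -0.15 over all 31 genes with no filter (13 of 31 positive).

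Each PFOA library exceeded each vehicle library for 3 of 15 genes in WT (Trac, Trbc1 and Trbc2), as for 11.6% of all genes. This held for 5 of 15 in KO (Trac, Trbc1, Trbc2, Trbv3 and Trbv5), against 6.82% of all genes, and for 2 of 15 in KI (Trac and Trgc2), against 4.45%. The reverse, each PFOA library below each vehicle library, was seen for 2 of 15 in WT (Trgc2 and Trgv2, against 10.9% of all genes), 0 in KO (5.99%) and 0 in KI (3.78%). Since Trgv2 passed the filter only through WT vehicle, its lack of overlap is no support for a difference. Trac was the 1 gene of the 15 without overlap in all 3 genotypes.

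The effect of PFOA was not shown to differ between genotypes for any of the 15 genes. For the KO effect minus the WT effect, edgeR called 0 (0% of all genes), with 0 at an unadjusted p under 0.05 (7.46% of all genes). The smallest p was that of Trgv2 (adjusted p 0.675, no fold given), followed by Trbv3 (adjusted p 0.742). Trgv2, with 23 counts in all libraries, passed the filter only through its WT vehicle counts, so that its p is no support. For the KI effect minus the WT effect, 0 were called (0% of all genes), and 1, Trgc2, had an unadjusted p under 0.05 (4.58% of all genes). It was followed by Trdv4 (adjusted p 0.999), which passed the filter only through its WT PFOA counts. For Trac these differences were 0.23 (SE 0.57, edgeR adjusted p 0.949) and -0.42 (SE 0.57, adjusted p 1), and for Trbc1 0.49 (SE 0.69) and -0.94 (SE 0.69). DESeq2 on the same genes also called 0 of 15 in both (3 and 1 of all 26946 genes).

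Between genotypes over both exposures, T cell receptor genes were not called while NK and B cell genes were. For KO against WT, edgeR called 0 of the 15 and 2.36% of all genes, for KI against WT 0 and 1.37%, and for KI against KO 0 and 0.00742%. At an unadjusted edgeR p under 0.05 there were 2 of 15 for KO against WT (12.9% of all genes), 0 for KI against WT (9.65%) and 0 for KI against KO (4.78%). DESeq2 on the same genes called 0 of the 15 in each, beside 799, 458 and 8 of all 26946 genes. The first 2 of these comparisons share the WT libraries. The 2 genes were Trgv6 (edgeR adjusted p 0.291, no fold given since WT held 1 count) and Trgc4, at 1.53 (SE 0.67, adjusted p 0.322). Trgv6, with 21 counts in all libraries, passed the filter only through its KO counts, so that its p is no support for a difference. Trgv6 was called without WT PFOA 50, which holds its 1 WT count (edgeR adjusted p 0.176), and a fold against a group then at 0 counts is not a measured size. Trac differed between genotypes by 0.15 (SE 0.27) for KO against WT and by -0.27 (SE 0.28) for KI against WT, with edgeR adjusted p of 0.878 and 0.884. The smallest p for KI against WT were those of Trbv19 (edgeR adjusted p 0.618, no fold given), which had 1 count in the WT libraries, and Trbv3 (1.64, SE 0.91, adjusted p 0.626). Trbv19, with 20 counts in all libraries, and Trbv3, with 28, likewise passed the filter only through their KI counts. For KI against KO they were those of Trbv3 (1.73, SE 0.86, edgeR adjusted p 1.0) and Trac (-0.43, SE 0.26, adjusted p 1.0).

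Of 10 tested NK cell genes, 8 were called higher in KO than in WT and 8 in KI than in WT, with 0 lower. Ncr1, an activating receptor of NK cells, had a log2 difference of 2.46 (SE 0.41) for KO and 2.27 (SE 0.42) for KI against WT, and the others were Klrb1c, Klrk1, Klre1, Gzma, Gzmb, Prf1 and Tbx21 in both. The 11 genes of the list summed to 6.39 to 27.0 CPM in WT libraries, 29.6 to 70.6 in KO and 23 to 51.8 in KI. Of 7 B cell genes, 5 were called higher in KO and in KI than in WT, among them Ms4a1 and Pax5, with a median log2 difference over the list of 1.5 and 1.76. The corresponding medians over the 15 T cell receptor genes were 0.40 and 0.37.

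Genes of other proteins of the T cell receptor complex were also higher on PFOA in WT and KO, again with 0 called. The CD3 genes Cd3d, Cd3e, Cd3g and Cd247, whose proteins carry the signal into the cell, gave log2 fold changes on PFOA of 0.29, 1.28, 1.16 and 0.42 for WT, 1.29, 1.01, 0.96 and 0.92 for KO, and 0.51, 0.17, -0.36 and 0.29 in KI. Summed, they were at 11.8 and 18.1 CPM in WT vehicle and 24.9 to 26.3 in WT PFOA, at 15.2 to 20.5 and 30.1 to 42.2 in KO, and at 22.2 to 26.7 and 20.2 to 31.3 in KI, where the groups overlapped. Over the 3 genotypes, Cd3e had 0.76 (SE 0.25, edgeR adjusted p 0.468), Cd247 0.55 (SE 0.15, adjusted p 0.394), Cd3d 0.72 (SE 0.31, adjusted p 0.552) and Cd3g 0.51 (SE 0.25, adjusted p 0.605).

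The coreceptors mark the helper and the cytotoxic alpha-beta T cells. For Cd4 the log2 fold change was 1.35 for WT, 0.88 for KO and 0.11 for KI, for Cd8a 0.93, 0.07 and 0.18, and for Cd8b1 1.62, 1.32 and 0.36. Over the 3 genotypes they were 0.71 (SE 0.25), 0.34 (SE 0.27) and 1.02 (SE 0.36), with edgeR adjusted p of 0.485, 0.758 and 0.485. Of 20 T cell signalling genes, such as Lck and Zap70, 0 were called, and their median was 0.66 in WT, 0.72 in KO and 0.06 in KI. The 8 tested genes of the gamma-delta and IL-17-producing T cell list had medians of 0.00, 0.01 and -0.03. For KO against WT, 4 of the 8 were positive, with 0 called higher and 2 called lower, among them Zbtb16 (-1.04, SE 0.31). At an unadjusted edgeR p under 0.05, 2 were higher and 4 lower. Some genes of this list were far above Trac (mean 1.77 CPM in WT vehicle), with 625.4 CPM for Zbtb16, 105.4 for Sox13 and 63.0 for Maf there. The part of T cells in their counts was not tested.

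NK and B cell genes likewise had positive medians on PFOA in WT and KO, with 0 genes called. The NK median on PFOA was 1.39 for WT, 1.02 for KO and 0.34 for KI, and the B cell median 1.17, 0.89 and -1.05. The 5 tested genes of the group 2 innate lymphoid cell list had medians of 0.09, -0.04 and -0.19, and the 8 lung genes of 0.10, 0.32 and 0.15. The 5 tested genes of the V(D)J recombination and thymocyte list had a median of 1.17 for WT, -2.66 for KO and -0.29 for KI, with KO vehicle 137, where Rag1, Rag2, Dntt and Ptcra were high, in the vehicle group and WT PFOA 50, where Rag1 and Ptcra were high, in the exposed group. The part of these other cell types in the values of the T cell receptor genes was not tested.

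**Figure D4:**
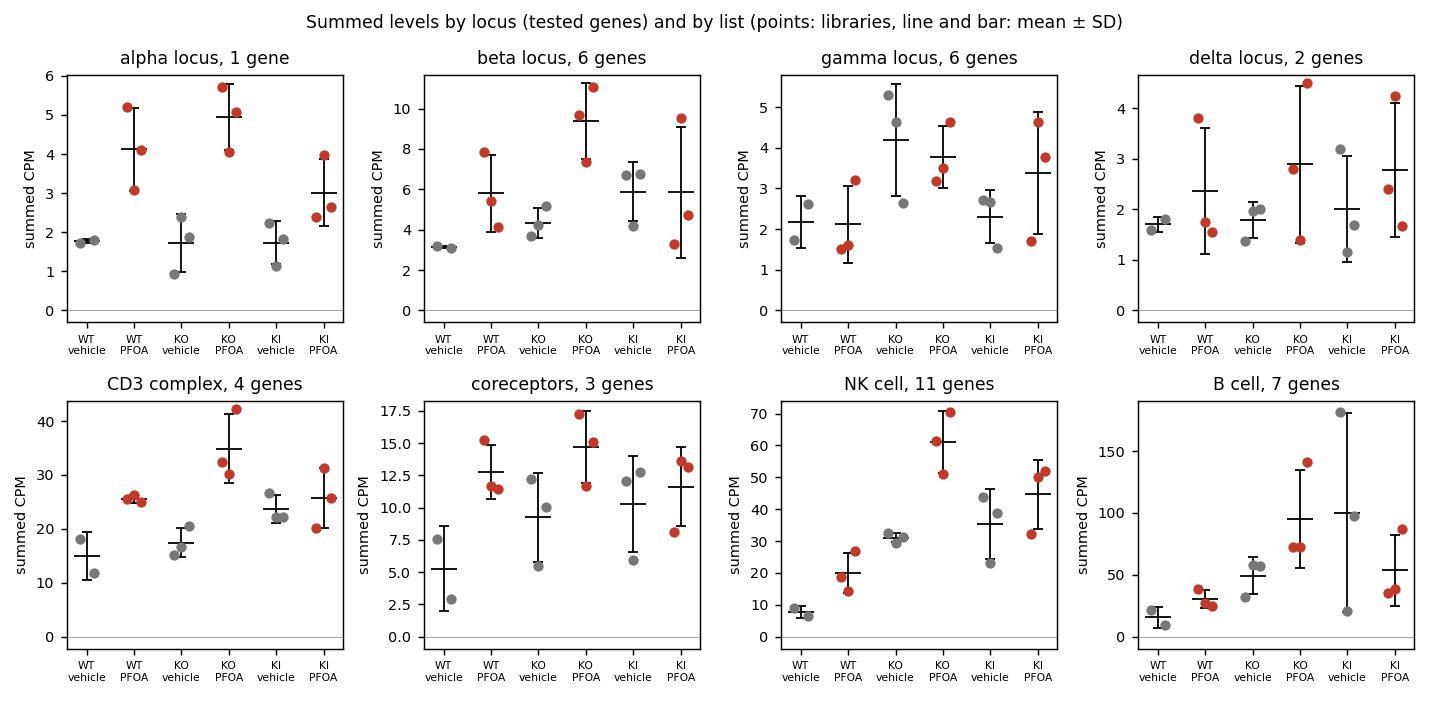
Summed CPM (y axis) by group (x axis) for the tested genes of each locus (top row) and for 4 gene lists (bottom row). Points are libraries, and lines with bars are means ± SD. The NK cell sums of all WT libraries lie below those of all KO libraries, whereas the alpha values of the 3 vehicle groups overlap.

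Across the 17 libraries, Trac on the log2(CPM + 0.5) scale was compared with 6 lymphocyte genes, with permutation tests of 100000 resamples and Benjamini-Hochberg adjustment over the 6, and a relation was called at an adjusted p of Pearson's r under 0.05. Trbc2 gave Pearson's r = 0.726 (permutation p 0.00086, adjusted 0.00516) and Spearman's rho = 0.738 (p 0.00093, adjusted 0.00186), and r was 0.616 without KO PFOA 52 and KO vehicle 137, the libraries farthest from the median of Trac. Cd4 gave r = 0.671 (permutation p 0.00258, adjusted 0.00774) and rho = 0.770 (p 0.00048, adjusted 0.00186), with r = 0.634 without these 2 libraries. Cd3e gave r = 0.603 (permutation p 0.00758, adjusted 0.0152) and rho = 0.760 (p 0.00062, adjusted 0.00186), with 0.573 without them. These relations include the difference between exposed and vehicle groups: on deviations from the group means r was 0.703 for Trbc2, 0.512 for Cd4 and 0.262 for Cd3e, with permutation p adjusted of 0.00525, 0.0532 and 0.309. The permutations treated the 17 deviations as independent although 6 group means had been subtracted, so that p on deviations can be too small.

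Trdc gave r = 0.530 (permutation p 0.0296, adjusted 0.0444) and rho = 0.436 (p 0.0826, adjusted 0.124), with r = 0.459 without the 2 libraries, but r = 0.740 (permutation p adjusted 0.00408) and rho = 0.772 (adjusted 0.003) on deviations from the group means, the highest r of the 6 genes there. Cd8a gave r = 0.2 (permutation p 0.442, adjusted 0.442) and rho = 0.392 (p 0.122, adjusted 0.147), with 0.561 without the 2 libraries. The B cell gene Cd79a gave r = 0.314 (permutation p 0.222, adjusted 0.266) and rho = 0.365 (p 0.15, adjusted 0.15), with 0.230 without them. On deviations from the group means, Cd79a gave r = 0.624 (permutation p adjusted 0.0158) and Cd8a r = -0.295 (adjusted 0.302). Without KI vehicle 116 and KO vehicle 137, the libraries farthest from the median there, r was 0.437 for Cd79a, 0.378 for Cd4 and 0.329 for Cd3e. It was 0.669 for Trbc2, 0.753 for Trdc and -0.0353 for Cd8a. Within groups, Trac thus also rose with a B cell gene, though p on deviations can be too small. Whether this r differs from those with Cd4 and Cd3e was not tested. Within a library code these relations were not computed, since each code held 4 or 5 libraries.

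**Figure D5:**
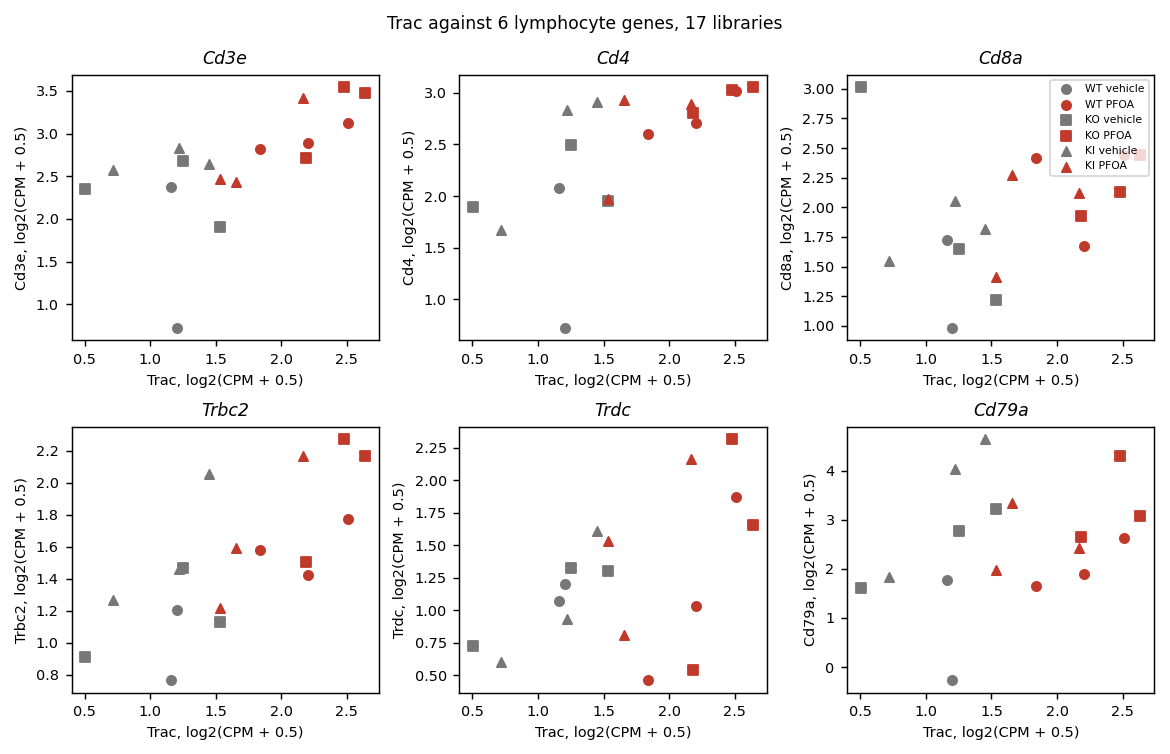
Trac (x axis) against 6 lymphocyte genes (y axes), both as log2(CPM + 0.5), with 1 point per library. Grey is vehicle and red PFOA, circles are WT, squares KO and triangles KI. Trbc2 rises with Trac (r = 0.726), and Cd79a is scattered (r = 0.314). On deviations from the group means, which are not drawn, r is 0.703 for Trbc2 and 0.624 for Cd79a.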

How the data were processed

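Lung RNA of 17 mice was sequenced from stranded total RNA libraries. The authors quality-trimmed reads, mapped these to mm10 with STAR 2.6 in Partek Flow (versions from the submitters' processing notes), and deposited estimated counts per gene from an expectation-maximization model, without normalization. The annotation release and the use of strand in counting are not given in the sources used here. Of the table's cells, 29.9% were not whole, and the smallest gene total was 10. Columns of other samples numbered 0.

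The members and gene lists were chosen with earlier results of these data known. Estimated counts were rounded, and edgeR (4.0.16, R 4.3.3) tested the 26946 genes that reached 20 counts in total after TMM scaling, by quasi-likelihood F-tests over all 17 libraries, with 1 coefficient per group for comparisons within a genotype and a model of genotype and exposure otherwise. A call needed an adjusted p (Benjamini-Hochberg over all genes tested) under 0.2 and a fold over 2, the study's thresholds. CPM are TMM-scaled. The test was tried on simulated counts. Replicate numbers are mouse numbers and pair no samples. Libraries of a group differed beyond sampling noise (smallest chi-square over its degrees of freedom 6.29), so each counted once. Whether littermates or cages were shared is not stated, and p-values measure the spread between these mice. Counting floors cover counting error only.

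The 31 members were matched by start and end to GENCODE M21 (build GRCm38, the same as mm10), which holds 8 C, 144 V, 70 J and 4 D genes of this kind. Sequences, exon lengths and shared stretches of 80 bases come from its transcripts. Named were all C genes, the 3 V genes of highest mean CPM in each locus, members called anywhere, the 2 with the smallest unadjusted p in each comparison, and of the lists the CD3 and coreceptor genes and genes called, except some items that are not reported here. Other genes (V genes with shared reads or without overlap between groups, Rag1, Rag2, Dntt, Ptcra, Lck, Zap70, Sftpc, Cldn18 and Scgb1a1) were named after their values were seen. Alternatives were RLE factors, no filter, filterByExpr, DESeq2 1.42.0 (same genes, or default filters), sex or library code as a covariate, an adjusted p under 0.05, and leaving out each library. Chosen after seeing the data were leaving out WT vehicle 122 and KO vehicle 137, the protein-coding share as a covariate, Trbc1 and Trbc2 merged, and library sizes from protein-coding genes. Tables and figures used Python 3.11.15, pandas 2.3.3, numpy 2.4.6, scipy 1.17.1 and matplotlib 3.10.9.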

Additional observations from a re-analysis of the deposited data

How the results depend on the processing

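The number of T cell receptor genes called was 0 under each setting of each comparison except as follows. Over the 3 genotypes on PFOA it was 1 (Trac) with DESeq2 on the same genes, and 0 to 1 when each library was left out in turn (1 without KI PFOA 57, KI vehicle 102 or KI PFOA 139). Of all 26946 genes, DESeq2 called 26 there, and edgeR without these libraries in turn 6, 13 and 35. DESeq2 with its default filters gave Trac no adjusted p. For KO against WT the number of T cell receptor genes called was 0 to 1 when each library was left out. It was 1, Trgv6, without WT PFOA 50, where 534 of all 26946 genes were called. The cause of these changes was not tested. The log2 fold change of Trac on PFOA was positive under the 28 alternatives in each case, at 0.96 to 1.39 in WT, 1.20 to 1.73 in KO and 0.55 to 1.02 in KI. Taken as deviations from group means, the correlation of Trac fell short of the threshold (adjusted permutation p under 0.05) with Cd3e (r = 0.262) and Cd4 (r = 0.512). It passed the threshold with Cd79a (r = 0.624), turned negative with Cd8a (r = -0.295, adjusted permutation p 0.302) and was highest with Trdc (r = 0.740). The permutation p on deviations can be too small, since they treat the deviations as independent. With a pseudocount of 1 CPM the correlations across libraries kept their side of the threshold. Summed levels moved by more than the spread between replicates mainly when V genes under the filter were added, as for the alpha sum, which became 2.20 CPM in WT vehicle, 2.98 in KO vehicle and 5.85 in KO PFOA. Over all 8 alpha genes the KI groups overlapped (1.53 to 3.80 CPM on vehicle, 2.74 to 4.75 on PFOA), while the WT and KO groups did not. No paired analysis was possible because the groups share no replicate numbers. Depth limits these results, with at most 43 counts of Trac and 9 of any V gene per library, and an absent V gene was not detectable rather than absent.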
